A study of Mus musculus with 8 samples.

Results

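The genes described here are 10 that encode the machinery with which cells show peptides on MHC molecules, in the tibialis anterior (TA) muscle of old mice with and without fast myosin binding protein-C. They were taken by symbol from the 16686 genes of the deposited table. 5 belong to the class I route (*H2-K1*, *H2-D1*, *B2m*, *Tap1* and *Psmb8*) and 5 to the class II route (*H2-Aa*, *H2-Ab1*, *H2-Eb1*, *Cd74* and *Ciita*).

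The study compared 4 wild-type mice (WTOld) with 4 mice that lack a working *Mybpc2* gene (C2-/-Old). All 8 were FVBN males, labelled as 22 months old, although a protocol entry in the same labels gives a much younger age. The C2-/- allele carries a Neo cassette between LoxP sites in place of a stretch of exons that starts at the second, and this germline change was not limited to muscle fibres. Each library was made from the TA muscle of 1 mouse, so a sample held fibres together with vessels, connective tissue and resident immune cells. In such bulk RNA, fewer cells of a type and less RNA per cell cannot be told apart.

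MHC class I molecules are made by nearly all nucleated cells. Cytosolic proteins are cut by the proteasome, the TAP transporter carries the peptides into the endoplasmic reticulum, and a heavy chain paired with beta-2 microglobulin presents them to CD8+ T cells. MHC class II molecules are made mainly by dendritic cells, macrophages and B cells, pair an alpha with a beta chain, and present peptides from engulfed material to CD4+ T cells. Healthy muscle fibres carry little class I and are generally held to lack class II. Mouse strains differ in the H2 alleles they carry, and strains of the q haplotype, to which FVB mice belong, do not make the I-E class II molecule.

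Expected counts summed to between 25425993 and 29747692 per mouse, and 3 counts, taken as the smallest level that can be shown, corresponded to 0.104 to 0.116 CPM (counts scaled to a common library size with TMM factors). This level covers counting error only. The targeted gene, *Mybpc2*, stood at 4963, 5447, 5099 and 7390 CPM in WTOld replicates 1 to 4 and at 4.35, 4.02, 38.3 and 3.85 CPM in C2-/-Old replicates 1 to 4, in keeping with every label. Summed markers of fast muscle fibres lay between 158168 and 208918 CPM, with the ranges of the genotypes overlapping. WTOld replicate 2 was the highest mouse for 9 of the genes described here and WTOld replicate 1 the lowest for *H2-Aa*, *H2-Ab1* and *Cd74*, so genotype differences are also given without them. Leaving out WTOld replicate 1 gave log2 fold changes from −0.36 (*H2-K1*) to −0.021 (*B2m*) for the 5 class I genes, none of which changed sign.

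The class I and class II genes mostly lie in the H2 complex on chromosome 17, and their promoters are known for a shared module, an X box and a Y box, read by the RFX factors, CREB-type factors and NF-Y. RefSeq promoters on build GRCm38.p6 were listed for 7 of the 10 genes. They are shown because the module ties the class I chains to the class II chains whose RNA is compared next. The reference is C57BL/6J and not FVB, so the letters are those of the reference. In the 250 bases before the start, a TGACG followed after 15 to 25 bases by ATTGG, read on both strands, was found for *H2-K1*, *H2-D1*, *B2m* and *H2-Aa*. Of all 32851 listed promoters, 125 (0.381%) hold it. This pattern was chosen after the sequences had been seen. Capitals mark TGACG and ATTGG.
H2-K1, chr17:34000348-34000408, minus strand: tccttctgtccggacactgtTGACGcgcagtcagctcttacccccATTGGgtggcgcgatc
H2-D1, chr17:35262973-35263042, plus strand: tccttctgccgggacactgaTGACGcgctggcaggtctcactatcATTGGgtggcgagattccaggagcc
B2m, chr2:122147589-122147658, plus strand: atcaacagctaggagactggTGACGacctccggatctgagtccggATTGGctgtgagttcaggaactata
H2-Aa, chr17:34287847-34287917, minus strand: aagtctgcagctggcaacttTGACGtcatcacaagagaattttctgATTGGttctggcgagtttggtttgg

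TGACG and ATTGG were 20 bases apart in *H2-K1*, *H2-D1* and *B2m* and 21 in *H2-Aa*. The *H2-K1* stretch ends 1 base before the start used for it. The longer Y box CTGATTGG was found for *H2-D1*, *Tap1*, *H2-Aa* and *H2-Eb1*, against 3.83% of all promoters. In *H2-Aa* it overlaps the ATTGG above. The *H2-Eb1* promoter held this Y box without the paired pattern, with the Y box in capitals here.
H2-Eb1, chr17:34305785-34305832, plus strand: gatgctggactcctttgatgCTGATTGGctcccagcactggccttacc

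In the *Psmb8* window neither pattern was found, which says only that these letters are not there. *H2-Ab1*, *Cd74* and *Ciita* had no promoter entry.

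Levels of different genes were compared per length, in the TPM values (reads scaled by gene length and library size) of the deposited table. *B2m*, the light chain of every class I molecule, was the highest of the 10 with 200.5 ± 40.6 TPM (mean ± SD, n = 8 mice). *H2-D1*, a classical class I heavy chain, followed at 153 ± 22.7 TPM, and *B2m* lay above it in 8 of 8 mice although their ranges overlapped. *Cd74*, the invariant chain that guides new class II molecules to the endosome, came next at 64.1 ± 21.0 TPM and its range did not reach that of *H2-D1*.

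*H2-K1*, the other classical heavy chain measured, stood at 34.0 ± 6.39 TPM. It lay below *Cd74* in 7 of 8 mice. The class II alpha and beta chains of I-A, *H2-Aa* and *H2-Ab1*, were nearly level at 21.2 ± 6.42 and 20.1 ± 7.54 TPM, with *H2-Aa* higher in 6 of 8 mice, so their order did not stand clear of the spread. *Psmb8*, the immunoproteasome subunit that is induced by interferon gamma, was at 6.69 ± 1.94 TPM. *Tap1*, a subunit of the peptide transporter, was at 1.88 ± 0.262 TPM, and its range lay below that of *Psmb8*.

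*H2-Eb1*, the beta chain of I-E, was at 0.339 ± 0.153 TPM and *Ciita*, the coactivator that switches on class II genes, at 0.080 ± 0.0283 TPM. Both were lower than every other gene of the group in all 8 mice. *H2-Eb1* rested on 5 to 16 counts per mouse, against 149 to 473 for *H2-Aa* and 107 to 569 for *H2-Ab1*. The I-E alpha chain, listed in this reference as the pseudogene *H2-Ea-ps* and looked up after the *H2-Eb1* values were seen, had 2 to 13 counts per mouse. Thus the I-A chains and the invariant chain were measured at 107 reads or more in every mouse while the I-E chains were close to the smallest level that can be shown.

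**Figure D1:**
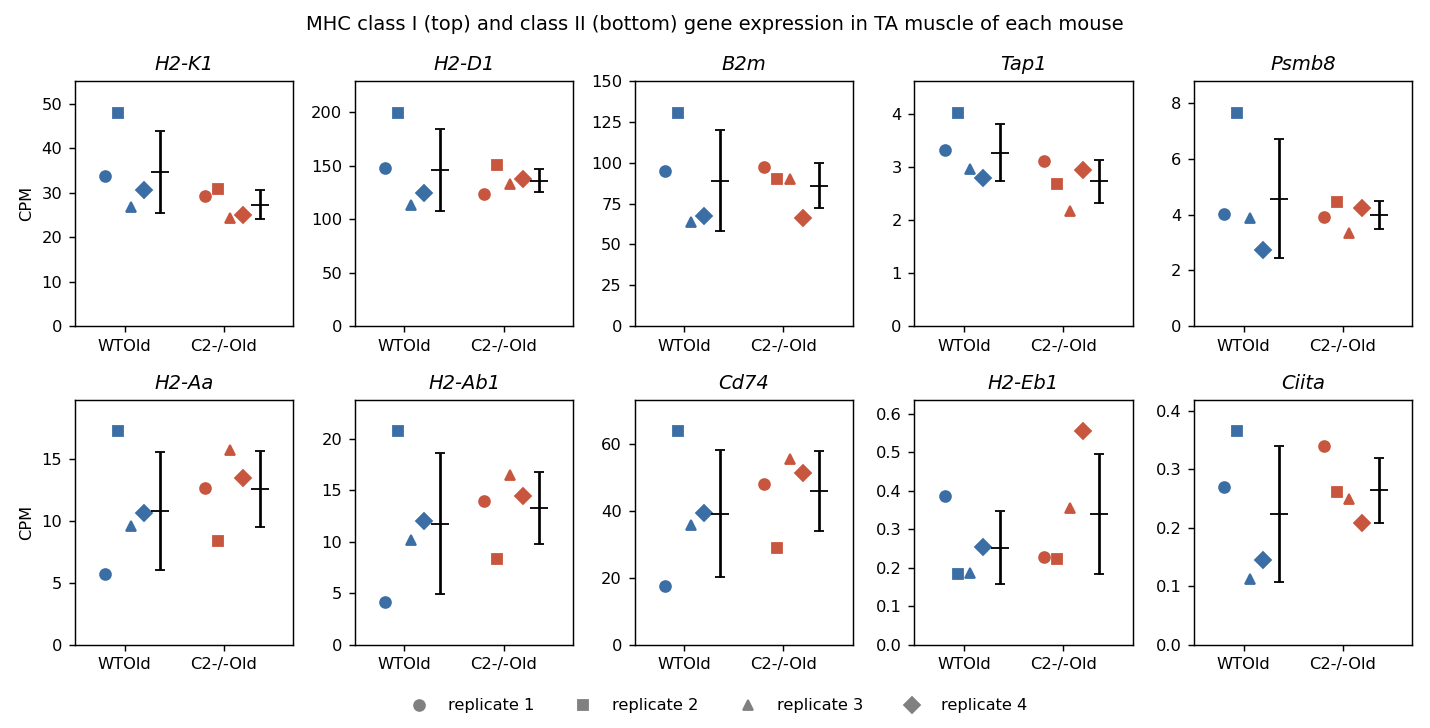
Expression of each gene in CPM (vertical axes, starting at 0) in the TA muscle of each of the 8 mice, WTOld in blue and C2-/-Old in red; the shape of a point gives the replicate number and the black bar the mean ± SD of 4 mice. The genotypes overlap in all 10 panels, and WTOld replicate 2 is the highest point for 9 of the 10 genes, *H2-Eb1* being the exception.

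The genotype comparison asked whether old muscle without fast myosin binding protein-C carries more or less RNA for antigen presentation. None of the 10 genes was called, which required an adjusted p under 0.05 and a change above 1.5-fold in the quasi-likelihood test of edgeR, with p-values adjusted by the Benjamini-Hochberg method over all tested genes. 8 passed the filter on low counts, and *H2-Eb1* and *Ciita* did not. Of the 8 tested, 0 were called (0.0319% of all 12542 tested genes were) and 0 had an unadjusted p under 0.05 (5.29% of all genes, 3.38% higher and 1.91% lower in C2-/-Old), while limma-voom and DESeq2 also called 0. The CPM ranges of the genotypes overlapped for all 10, against 3.37% of tested genes whose ranges did not.

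*H2-K1* came closest to a difference. It stood at 33.6, 47.9, 26.6 and 30.5 CPM in WTOld and at 29.2, 30.8, 24.2 and 24.9 CPM in C2-/-Old. The highest value was WTOld replicate 2, and the lowest WTOld value lay within the C2-/-Old range. The log2 fold change was −0.35 ± 0.18 (SE), with a 95% interval from −0.75 to 0.06, and the adjusted p was 0.968 in edgeR. Without WTOld replicate 2 it was −0.14.

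*H2-D1* stood at 147.7, 199.2, 112.9 and 124.1 CPM in WTOld and 123.7, 150.4, 132.6 and 137.2 CPM in C2-/-Old. The 4 C2-/-Old values lay inside the WTOld range. Its log2 fold change of −0.10 ± 0.17 (95% interval −0.48 to 0.28) turned to 0.090 without WTOld replicate 2. *H2-K1* and *H2-D1* transcripts are 88.2% identical over 1513 bases, and both had fractional counts in all 8 libraries, so the split of reads between them is uncertain. When *H2-K1*, *H2-D1* and the H2-Q and H2-T genes of the table, 16 rows with 1 pseudogene among them, were summed to 1 value, the log2 fold change was −0.14 (adjusted p = 0.969 in edgeR).

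*B2m* stood at 94.9, 130.6, 63.7 and 67.5 CPM in WTOld and 97.3, 90.4, 90.4 and 66.0 CPM in C2-/-Old. WTOld held both the highest and the lowest mouse. The log2 fold change of *B2m* was −0.05 ± 0.23 (95% interval −0.55 to 0.45) and became 0.20 without WTOld replicate 2.

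*Tap1* stood at 3.32, 4.01, 2.95 and 2.79 CPM in WTOld and 3.10, 2.68, 2.16 and 2.95 CPM in C2-/-Old, on 61 to 110 counts per mouse. C2-/-Old replicates 2 and 3 lay below every WTOld mouse, and C2-/-Old replicates 1 and 4 lay inside the WTOld range. Its log2 fold change was −0.26 ± 0.20 (95% interval −0.70 to 0.18), and −0.14 without WTOld replicate 2.

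*Psmb8* stood at 4.01, 7.66, 3.88 and 2.75 CPM in WTOld and 3.93, 4.46, 3.33 and 4.23 CPM in C2-/-Old. WTOld replicate 2 was far above the other 7 mice. The log2 fold change of *Psmb8* was −0.20 ± 0.29 (95% interval −0.83 to 0.44), and 0.18 without that mouse.

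Of the class II genes, *H2-Ab1* varied most between mice. It stood at 4.12, 20.7, 10.2 and 12.0 CPM in WTOld and 14.0, 8.29, 16.5 and 14.5 CPM in C2-/-Old. WTOld held the lowest mouse, replicate 1, and the highest, replicate 2, with a 5.03-fold range over the 8 mice. The log2 fold change was 0.18 ± 0.39 (95% interval −0.70 to 1.05; adjusted p = 0.987 in edgeR). It was −0.10 without WTOld replicate 1 and 0.61 without WTOld replicate 2.

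*H2-Aa* stood at 5.74, 17.2, 9.63 and 10.6 CPM in WTOld and 12.7, 8.40, 15.8 and 13.5 CPM in C2-/-Old. The order of the mice was that of *H2-Ab1*. Its log2 fold change of 0.22 ± 0.30 (95% interval −0.45 to 0.89) was 0.01 without WTOld replicate 1 and 0.54 without WTOld replicate 2, where the unadjusted p of edgeR was 0.0507.

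*Cd74* stood at 17.5, 63.6, 35.8 and 39.2 CPM in WTOld and 48.0, 28.7, 55.4 and 51.3 CPM in C2-/-Old. Again WTOld replicate 1 was lowest and WTOld replicate 2 highest. The log2 fold change of *Cd74* was 0.23 ± 0.34 (95% interval −0.51 to 0.98), −0.011 without WTOld replicate 1 and 0.58 without WTOld replicate 2.

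The 5 class I genes thus had fitted values below 0 (median −0.20) and the 3 tested class II genes above 0 (median 0.22), with 45.8% of all tested genes above 0 and a median of −0.02. The intervals leave room for a change of up to 2.07-fold upwards for *H2-Ab1* and down to 0.561-fold for *Psmb8*.

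**Figure D2:**
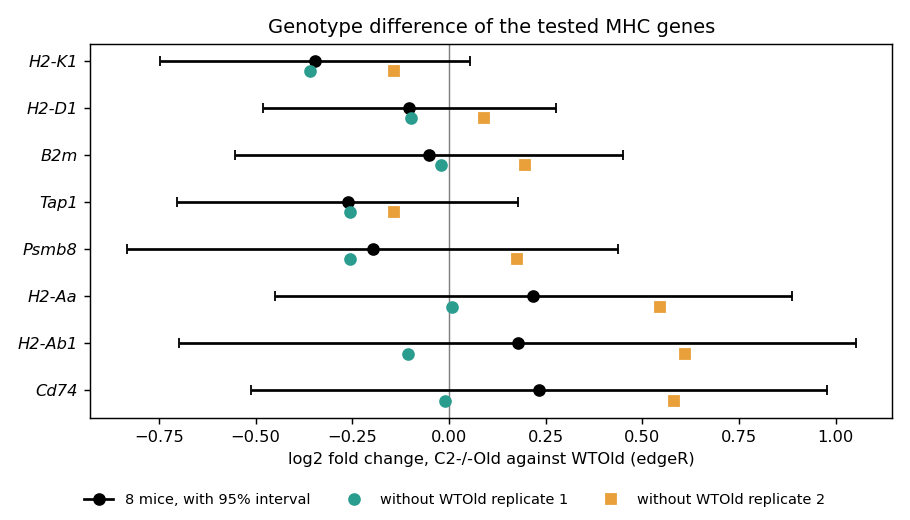
Log2 fold change of C2-/-Old against WTOld (horizontal axis) for the 8 tested genes from edgeR; black points with bars give all 8 mice with the 95% interval, green circles the value without WTOld replicate 1 and orange squares that without WTOld replicate 2. Every interval crosses 0, and the orange squares lie to the right of the black points for all 8 genes.

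The 2 untested genes rested on few counts. *H2-Eb1* stood at 0.385, 0.182, 0.187 and 0.253 CPM in WTOld and 0.227, 0.223, 0.355 and 0.554 CPM in C2-/-Old, and its highest mouse was C2-/-Old replicate 4. *Ciita* stood at 0.270, 0.365, 0.112 and 0.145 CPM in WTOld and 0.340, 0.260, 0.248 and 0.208 CPM in C2-/-Old, with 3 to 10 counts per mouse. The 4 C2-/-Old values lay inside the WTOld range. A 2-sided exact permutation test on CPM gave p = 0.371 for *H2-Eb1* and p = 0.6 for *Ciita*.

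Beside the spread between genotypes, the spread between mice differed among the 10 genes. The coefficient of variation over 8 mice was 40.9% for *H2-Ab1*, 35.5% for *Cd74* and 32.8% for *H2-Aa*. Tested genes within 2-fold of each one's mean level had medians of 15.9%, 13.5% and 16.1%, and 95.5%, 94.5% and 91.2% of them varied less. Of the class I genes, *Psmb8* varied by 34.2%, *B2m* by 25.4%, *H2-K1* by 24.4% and *H2-D1* by 18.9%, more than 86.4%, 86.9%, 85.2% and 73.4% of genes at a like level. *Tap1*, at 17.8%, was below its median of 23.4%.

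The 3 well-measured class II genes placed the 8 mice in the same order (Spearman's rho = 1 for each pair). Pearson's r of log2 CPM was 0.986 for *H2-Aa* with *H2-Ab1*, 0.993 for *H2-Aa* with *Cd74* and 0.995 for *H2-Ab1* with *Cd74*. Each had p = 2.48e-05, the smallest that the exact permutation test allows, and an adjusted p of 0.000372 over the 45 pairs among the 10 genes (4.96e-05 and 0.000744 for rho). Without WTOld replicates 1 and 2, the mice farthest from the median, r was 0.985, 0.986 and 0.992. After each genotype's mean was subtracted it was 0.985, 0.992 and 0.995.

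The proportions of the chains moved little while their levels moved several-fold. The count of *Cd74* over that of *H2-Ab1* was 4.24, 3.07, 3.52 and 3.26 in WTOld and 3.44, 3.46, 3.35 and 3.54 in C2-/-Old. The count of *H2-Aa* over that of *H2-Ab1* was 1.39 in WTOld replicate 1, which had the fewest class II reads, and between 0.831 and 1.01 in the other 7 mice.

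**Figure D3:**
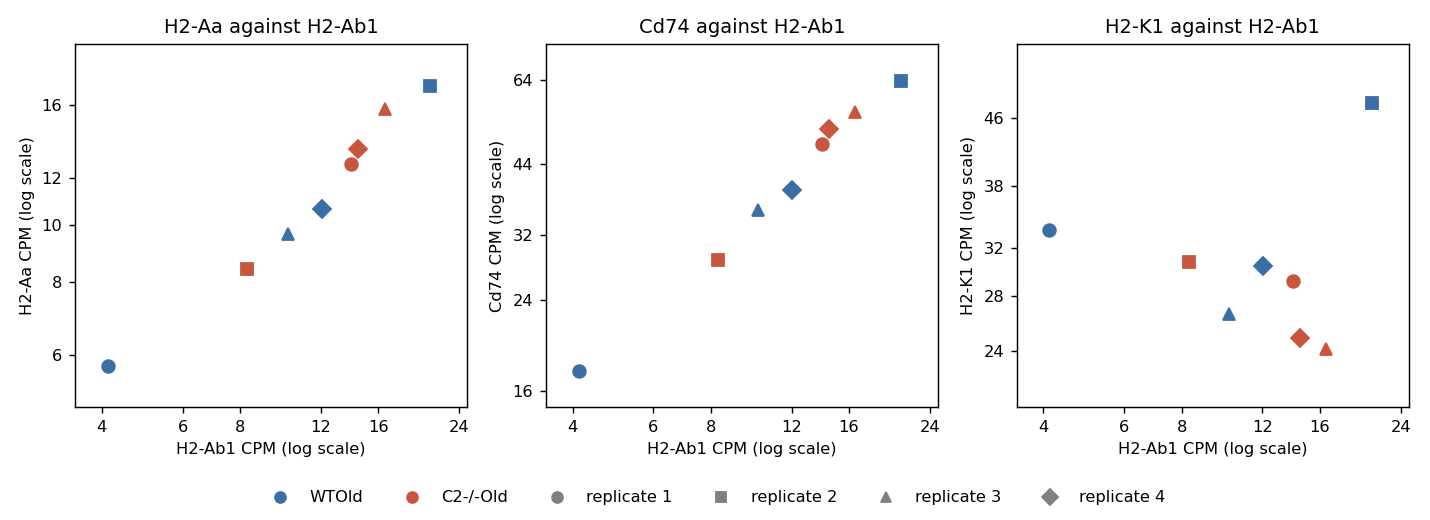
CPM of *H2-Aa* (left), *Cd74* (middle) and *H2-K1* (right) against that of *H2-Ab1* on log axes, with 1 point per mouse, WTOld in blue and C2-/-Old in red. *H2-Aa* and *Cd74* rise with *H2-Ab1* along a line shared by both genotypes (r = 0.986 and 0.995), and *H2-K1* does not (r = 0.05 with, −0.79 without WTOld replicate 2, the point at the upper right).

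*H2-Eb1* did not share this pattern. Its r with *H2-Ab1* was −0.18 (adjusted p = 0.924, exact permutation test), on the few counts given above. *Ciita* had an r of 0.16 with *H2-Ab1* (adjusted p = 0.924, exact permutation test).

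The class I genes varied together more loosely, and no pair of them passed the threshold over all 8 mice. Much of their relation rested on WTOld replicate 2. Without that mouse r between class I genes ran from −0.06 (*B2m* with *Tap1*) to 0.59 (*H2-K1* with *Tap1*). *H2-K1* with *H2-D1* had r = 0.82 and rho = 0.62 (adjusted p = 0.144 and 0.592, exact permutation tests). Their r fell to 0.37 without WTOld replicate 2, so the relation rested on that mouse. It was 0.46 without C2-/-Old replicate 3 as well. *H2-K1* with *B2m* had r = 0.74 (adjusted p = 0.152, exact permutation test). After each genotype's mean was subtracted, both pairs passed the threshold, with r = 0.89 and 0.88 (adjusted p = 0.036 for each, permutation tests), as did *H2-K1* with *Ciita* (r = 0.88, adjusted p = 0.0344, permutation test). These permutations moved the centred values between genotypes, so the 3 p-values are approximate. Within WTOld r was 0.99, 0.96 and 0.93 for the 3 pairs, and within C2-/-Old 0.27, 0.53 and 0.62. Across the routes, *H2-K1* with *H2-Ab1* had r = 0.05 and rho = −0.26 (adjusted p = 0.978 and 0.899, exact permutation tests). This near-0 value rested on WTOld replicate 2, the highest mouse for both genes, since r was −0.79 without that mouse and −0.74 without C2-/-Old replicate 3 as well. The count ratio of *H2-Ab1* to *H2-K1* ranged from 0.123 in WTOld replicate 1 to 0.684 in C2-/-Old replicate 3.

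The remaining pair past the threshold was *B2m* with *Ciita* (r = 0.90, rho = 0.95, adjusted p = 0.00614 and 0.0128, exact permutation tests; r = 0.87 without WTOld replicates 2 and 3). *Ciita* had at most 10 counts in a mouse, and counting error alone gives it a coefficient of variation of 38.9% against the 35.9% measured.

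**Figure D4:**
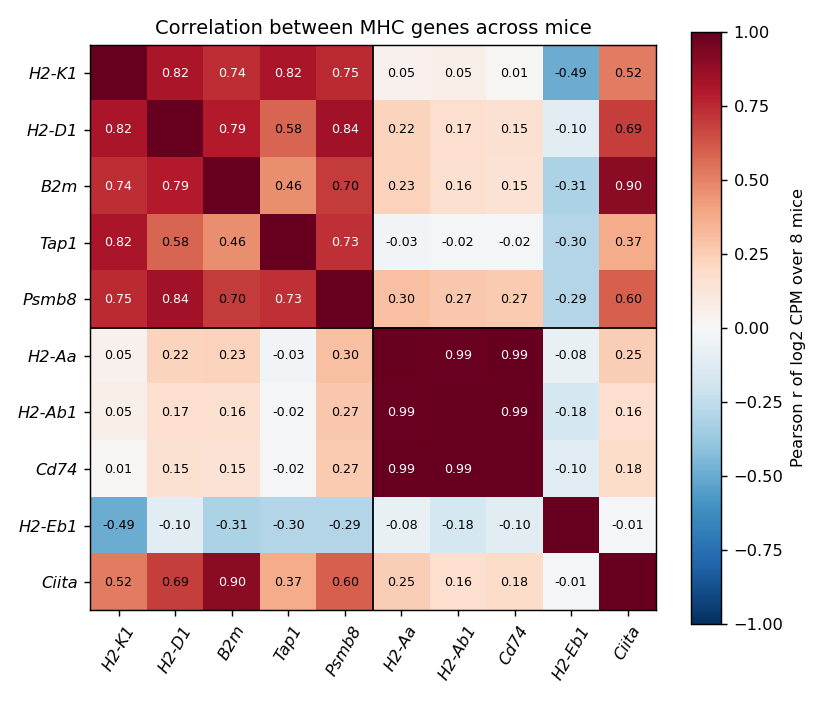
Pearson's r of log2 CPM over 8 mice for each pair of the 10 genes, from −1 (blue) to 1 (red), class I first and class II after the black line. *H2-Aa*, *H2-Ab1* and *Cd74* form a block of values of 0.99, the class I genes lie between 0.46 and 0.84 among themselves, and the values between these 5 and the 3 lie between −0.03 and 0.30. Without WTOld replicate 2, which is not drawn, the last 2 ranges were −0.06 to 0.59 and −0.84 to −0.19.

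The ratio of the 2 class I heavy chains was computed because the reads of the pair are shared. *H2-D1* over *H2-K1* counts was 4.39, 4.16, 4.24 and 4.07 in WTOld and 4.23, 4.89, 5.49 and 5.51 in C2-/-Old. 3 of the 4 C2-/-Old mice lay above all WTOld mice. The means were 4.22 ± 0.135 and 5.03 ± 0.604 (SD, n = 4 each), with p = 0.0857 in a 2-sided exact permutation test whose smallest possible p is 0.0286. This was the smallest p of several ratios between the genes compared in the same way. The others had p from 0.257 (*H2-Ab1* over *H2-K1*) to 0.943 (*H2-Aa* over *H2-Ab1*) in that test, with no adjustment for their number.

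By the rule fixed for naming them, the 5 genes closest to *H2-Ab1* over 8 mice among 12534 candidates were *Ptpn6* (r = 0.951), *Gemin8* (0.950), *Rassf5* (0.947), *Dnajc1* (0.943) and *Fyb* (0.940). Those closest to *H2-K1* were *Malsu1* (r = 0.993), *Gps2* (0.986), *Dnajc8* (0.979), *Psmb4* (0.971) and *Psma7* (0.969). They are given as a description, since the highest of so many values are large by selection.

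The rest of the class I route gave no call. Of 7 genes for peptide loading in the endoplasmic reticulum, 1 was fitted higher and 6 lower in C2-/-Old, and 0 had an unadjusted p under 0.05. The smallest p values were those of the editing chaperone *Tapbpl* (log2 fold change −0.35 ± 0.17, adjusted p = 0.968 in edgeR) and of *Tap2*, the partner of *Tap1* in the transporter (−0.08 ± 0.15). Of 4 further immunoproteasome and activator subunits, 1 was higher and 3 lower with 0 past an unadjusted p of 0.05, led by the activator subunit *Psme1* (−0.19 ± 0.17) and the catalytic subunit *Psmb10* (0.12 ± 0.14).

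Of a fixed list of 20 other class I heavy chains and class I-like genes, 16 were found in the table by symbol and 12 were tested, with 5 higher, 7 lower and 0 past an unadjusted p of 0.05. The smallest p values belonged to *Hfe*, an MHC-like protein of iron control (0.30 ± 0.17), and *H2-T10* (−0.18 ± 0.12).

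Nor was any gene called in the rest of the class II route. Of a fixed list of 7 other class II chains, 6 were found in the table and 3 were tested, 2 higher and 1 lower, with *H2-DMb2* (0.65 ± 0.42) and *H2-DMa* (−0.22 ± 0.26), chains of the peptide exchange factor H2-DM, at the smallest p. Of 10 genes for class II processing 9 were tested, 5 higher and 4 lower. The cathepsins *Ctsl* (−0.89 ± 0.48) and *Ctsh* (0.33 ± 0.18) had the smallest p, and 0 in either list had an unadjusted p under 0.05. *Ctsl* stood at 47.8, 184.6, 33.5 and 41.6 CPM in WTOld and 47.1, 46.8, 39.3 and 32.4 CPM in C2-/-Old, so that WTOld replicate 2 alone lay apart.

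All 12 regulators of MHC transcription were tested, 5 higher and 7 lower, again with 0 past an unadjusted p of 0.05. *Irf2* had the smallest p (−0.35 ± 0.16), with 22.6, 33.5, 20.0 and 25.7 CPM in WTOld and 19.9, 20.1, 21.7 and 18.2 CPM in C2-/-Old. Its highest mouse was again WTOld replicate 2. *Nlrc5*, the class I counterpart of *Ciita*, had a log2 fold change of −0.13 ± 0.47.

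Of 14 genes of interferon gamma signalling 13 were tested, 8 higher and 5 lower. *Irgm2*, an interferon-induced GTPase, had an unadjusted p under 0.05. It stood at 11.3, 15.7, 12.5 and 15.2 CPM in WTOld and 13.6, 23.9, 23.8 and 28.7 CPM in C2-/-Old, and its log2 fold change was 0.72 ± 0.21, with an adjusted p of 0.732 in edgeR. C2-/-Old replicates 2, 3 and 4 lay above every WTOld mouse. *Igtp*, another GTPase of the family, followed with 0.53 ± 0.24 (adjusted p = 0.943 in edgeR). *Ifng* itself did not pass the filter.

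Of 6 costimulation genes 5 were found in the table and 2 were tested, *Cd274* (−0.31 ± 0.26) and *Icosl* (0.16 ± 0.25), and 0 were called. Limma-voom and DESeq2 called 0 genes in each of these 8 lists as well.

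Markers of the cells that could hold these transcripts were set beside them. Summed macrophage markers lay between 46.6 and 100.2 CPM in WTOld and between 68.0 and 112.9 CPM in C2-/-Old, and none of the 12 was at 0 in any mouse. Summed dendritic cell markers lay between 7.65 and 15.5 CPM in WTOld and between 10.5 and 11.5 CPM in C2-/-Old, and *Flt3*, *Clec9a* and *Ccr7* were at 0 in at least 1 mouse. Like the 3 class II genes, both lists were lowest in WTOld replicate 1, while WTOld replicate 2 was highest of all mice for the dendritic cell list and second for the macrophage list.

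Summed B cell markers lay between 0.292 and 1.35 CPM in WTOld (mean 0.685) and between 0.319 and 5.79 CPM in C2-/-Old (mean 2.64). *Ms4a1* and *Pax5* were among the markers at 0 in at least 1 mouse. Only 1 B cell marker passed the filter on low counts, with a log2 fold change of 1.90. Its unadjusted p in edgeR was under 0.05, as for 3.38% of all genes in that direction, and it was not called. The highest B cell sum, in C2-/-Old replicate 1, did not go with the highest *H2-Ab1*. Summed T cell markers lay between 0.543 and 1.42 CPM and between 1.04 and 1.84 CPM, with 7 of 8 markers at 0 in at least 1 mouse. Natural killer cell markers did not exceed 0.177 CPM in any mouse. Summed neutrophil markers were 53.6 CPM in WTOld replicate 2, the mouse highest in class I, and at 3.98 CPM or more in the other mice, where C2-/-Old did not exceed 7.96 CPM.

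Relations of *H2-Ab1* and *H2-K1* with 11 marker sums were computed after these sums had been seen, 22 in all. *H2-Ab1* rose with the 4 leukocyte markers (r = 0.87, rho = 0.90, adjusted p = 0.0379, exact permutation test). This r was 0.88 without WTOld replicates 1 and 4, and 0.91 over 8 mice after each genotype's mean was subtracted. *H2-Ab1* fell as the 8 endothelial markers rose (r = −0.84, rho = −0.81, adjusted p = 0.0387, exact permutation test). That r was −0.70 without WTOld replicate 1 and C2-/-Old replicate 3, and −0.86 over 8 mice after the same subtraction. With macrophage and dendritic cell markers r was 0.72 and 0.85 (adjusted p = 0.123 and 0.0730, exact permutation tests), falling to 0.50 and 0.46 without the 2 farthest mice. The sparse natural killer cell and T cell markers gave similar values, 0.78 and 0.66 (adjusted p = 0.104 and 0.186, exact permutation tests). Without the 2 farthest mice these were 0.32 and 0.73. The natural killer cell sums reached at most 0.177 CPM, close to the smallest level that can be shown. Whether the trend was particular to antigen-presenting cells was not tested.

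*H2-K1* fell as the 6 fibroblast markers rose (r = −0.85, rho = −0.79, adjusted p = 0.0379, exact permutation test). This r was −0.69 without WTOld replicate 2 and C2-/-Old replicate 3, and −0.88 over 8 mice after each genotype's mean was subtracted. The fibroblast sum did not overlap between genotypes, at 308.7 to 500.0 CPM in WTOld and 547.3 to 775.1 CPM in C2-/-Old. With neutrophil markers *H2-K1* had r = 0.84 (adjusted p = 0.123, exact permutation test), which fell to 0.16 without WTOld replicates 2 and 4. The part of these cells in the levels of the MHC genes was not tested.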

How the data were processed

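RNA of TA muscle from 4 WTOld and 4 C2-/-Old mice was sequenced, 1 library per mouse. The authors deposited one table with expected counts per gene, not normalized, and TPM values; the submitters' notes name HISAT, Bowtie2, DESeq2 and build GRCm38.p6. Strand use in counting is not given in the sources used here, and *B2m*, *Cd74* and *Ciita* overlap other genes. Reads of FVB mice were placed on the C57BL/6J reference, whose H2 alleles differ, and the effect on these levels was not tested. The interval the table gives for *H2-K1* (305785 to 34000341) is far longer than the gene. The table also holds the authors' fold changes, p-values and group means, and 8 further columns of values per mouse, none of them used.

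Expected counts were rounded and tested with edgeR 4.0.16 (R 4.3.3; quasi-likelihood, TMM, default filter, 12542 genes kept, Benjamini-Hochberg). Intervals use the standard error and the test's degrees of freedom. The study's methods name limma-voom, tried here as an alternative with limma 3.58.1, and DESeq2 1.42.0 as another. Correlations use log2 CPM with a prior count of 2. For marker sums, the CPM were added up and a small constant was added before taking log2. Copies were found with blastn 2.17.0 in GENCODE vM21. The steps were tested on simulated data. Each library is labelled as a separate mouse. The genes and lists were chosen with earlier results of these data known. Named are all 10 genes, the 2 with the smallest p of each pathway list, every called gene in them, and the 5 closest to *H2-Ab1* and to *H2-K1*. *Nlrc5*, *Ifng*, *H2-Ea-ps* and the marker genes named as at 0 were added after their values were seen. Some genes of these lists that the rule would name are not reported here.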

Additional observations from a re-analysis of the deposited data

Results flagged for a closer look

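Of 62 groups of 4 mice examined, 3 held a mouse far from the other 3 of its genotype, and chance alone flags about 1 in 20 such groups. The summed CPM of the other MHC class I heavy chains was 131.9 in C2-/-Old replicate 1 and between 136.7 and 137.6 in the other C2-/-Old mice. The summed leukocyte markers were at 13.5 CPM in C2-/-Old replicate 2, which also had the lowest *H2-Ab1*, *H2-Aa* and *Cd74* of its genotype, against 17.0 to 17.4 CPM in the others. The summed immediate early genes were at 762 CPM in C2-/-Old replicate 2 and between 34.9 and 53.2 CPM in the other C2-/-Old mice. In WTOld replicates 1 to 4 this sum was 83.1, 542, 51.4 and 1227 CPM, so high values were not limited to that mouse.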

How the results depend on the processing

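None of the 8 tested MHC genes was called under any of 16 alternatives; *H2-Eb1* and *Ciita*, fitted here with DESeq2 and without the filter, were not called either. Over all genes 4 were called, 30 with DESeq2, and 4 to 7 when 1 mouse was left out (7 without WTOld replicate 2). With limma-voom and sample quality weights, the log2 fold changes of *H2-D1*, *B2m* and *Psmb8* turned to 0.090, 0.19 and 0.19. Leaving out 1 mouse gave −0.20 to 0.090 for *H2-D1*, −0.17 to 0.20 for *B2m* (0.06 without C2-/-Old replicate 4), −0.36 to 0.18 for *Psmb8*, −0.10 to 0.61 for *H2-Ab1*, −0.011 to 0.58 for *Cd74*, 0.0089 to 0.54 for *H2-Aa*, −0.44 to −0.14 for *H2-K1* and −0.32 to −0.14 for *Tap1*. The mice whose absence turned a sign were WTOld replicates 1 and 2 and C2-/-Old replicate 4. The cause was not tested.

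*H2-K1* had an unadjusted p of 0.0298 without WTOld replicate 3 (adjusted 0.595, edgeR). With the replicate number as a block it had 0.0376 (adjusted 0.907, edgeR), with 4 genes called as before. Deviations from the genotype means had r from −0.0507 to 0.267 between mice with the same number. Mice with different numbers were not compared, so these values cannot settle whether the numbers pair the mice. Correlated pairs numbered 4, 7 after each genotype's mean was subtracted (the 3 added are *H2-K1* with *H2-D1*, *B2m* and *Ciita*), and 3 to 5 without 1 mouse. The count of 7 rests on approximate p-values, because centred values were permuted between genotypes. The 5 to 16 counts of *H2-Eb1* and 3 to 10 of *Ciita* limit what can be said of them.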
